A study of Mus musculus with 4 samples.

Results

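Dbp, Tef, Hlf, Per1, Per2, Per3, Cry1, Nr1d1, Nr1d2 and Ciart, output and feedback genes of the circadian clock, are 10 of the 32479 genes in the files, and the members were found by symbol. They were followed in the dorsal epidermis of 4 female C57BL/6N mice at postnatal day 19, with 1 single-cell library per mouse. The 2 control mice carried floxed CerS4 alleles without Cre (CerS4fl/flK14Cre-), and the 2 CerS4epi-/- mice carried the same floxed alleles with Cre under the keratin-14 promoter (CerS4fl/flK14Cre+). This promoter is active in basal keratinocytes and in the cells that descend from them, so the deletion covers hair follicles, sebaceous glands and the interfollicular epidermis (IFE), but not T cells. The sources used here do not give the hour of harvest, so no level below can be placed on a time scale. The comparisons ask whether these genes differ between layers of the epidermis, between genotypes, and between the mice of 1 genotype, and whether such a difference is shared by the layers.

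The circadian clock is a feedback loop inside each cell. The activators CLOCK and ARNTL bind E-box sequences and switch on Per, Cry, Nr1d and Ciart genes, whose products repress the activators or their genes, and they also switch on Dbp, Tef and Hlf. These last genes encode transcription factors of the PAR bZIP family, which carry the rhythm to other genes through D-box sequences. In skin, keratinocytes hold their own clocks, which are aligned to the rest of the body by signals such as glucocorticoids.

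Of the barcodes, 34150 passed as cells, 7567 to 9086 per mouse with a median of 3266 to 3884 counts per cell. They were clustered without the clock genes and named from marker genes, which gave 11658 IFE basal-like, 9457 IFE differentiated-like, 2775 IFE keratinized-like, 4664 upper hair follicle (uHF)-like and 456 T cell-like cells. For each mouse, the counts of all cells in a class were added up, and levels are given in CPM, the share of that sum scaled to 1000000 counts. The sums held 1992420 to 17842917 counts in the 4 keratinocyte classes, but only 130162 to 325503 counts in T cell-like cells, from 65 to 146 cells per mouse. Fewer cells of a kind within a class and less RNA per cell cannot be told apart in such sums. Cers4 served as the check of the labels. Over all cells it stood at 17.4 and 3.37 CPM in the control and 4.21 and 7.71 CPM in the CerS4epi-/- mice, so the genotypes overlapped. In sebaceous gland-like cells it stood at 2877 and 3348 CPM in the control mice, although the second value rests on 3 cells, and at 292.7 and 438.0 CPM in the CerS4epi-/- mice. The reads lie toward the 3′ ends of transcripts and were not compared with the deleted exons. The 2 control libraries shared 0 cell barcodes and the 2 CerS4epi-/- libraries shared 0, whereas pairs of libraries of different genotype shared 64 to 102. The labels name a kit that tags cells for pooling, and the sources used here do not say which mice were captured together, so genotype and capture cannot be told apart.

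Clock elements were searched in the 250 bases before the start of each gene's canonical transcript, on GRCm39 with Gencode vM39, over both strands. The E-box CACGTG was in the windows of 4 of the 10 genes (Tef, Per1, Cry1 and Ciart) and in 6.26% of 21770 windows of protein-coding genes. The D-box TTANGTAA was in the windows of Per2 and Per3 and in 2.08% of all windows. A 10-base REV-ERB and ROR element was in the window of Dbp alone among the 10 and in 0.68% of all windows, and the cyclic AMP response element TGACGTCA was in none of the 10 and in 1.69% of all windows. A match is a run of letters and not a measured binding site, and no match says only that these letters are absent from this window. The 5 windows shown belong to the genes on which the comparisons below turn. They run 5′ to 3′ on the strand of the gene, with matches in capitals: the E-box at 138 bases before the start in Tef (chr15:81695365-81695614, plus strand) and at 22 bases in Per1 (chr11:68989018-68989267, plus strand), the pair of D-boxes at 187 and 140 bases in Per3 (chr4:151129141-151129390, minus strand), and no match in Hlf (chr11:90281762-90282011, minus strand) or Nr1d1 (chr11:98666160-98666409, minus strand).
Tef: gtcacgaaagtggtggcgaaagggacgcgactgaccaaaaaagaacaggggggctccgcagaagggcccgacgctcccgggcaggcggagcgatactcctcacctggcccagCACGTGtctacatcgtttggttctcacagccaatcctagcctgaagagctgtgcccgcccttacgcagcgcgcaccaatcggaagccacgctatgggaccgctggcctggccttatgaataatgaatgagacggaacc
Per1: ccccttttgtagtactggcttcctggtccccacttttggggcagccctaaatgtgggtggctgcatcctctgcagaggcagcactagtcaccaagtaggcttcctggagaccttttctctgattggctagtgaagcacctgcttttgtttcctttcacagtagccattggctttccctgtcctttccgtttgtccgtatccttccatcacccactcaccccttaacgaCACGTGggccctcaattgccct
Per3: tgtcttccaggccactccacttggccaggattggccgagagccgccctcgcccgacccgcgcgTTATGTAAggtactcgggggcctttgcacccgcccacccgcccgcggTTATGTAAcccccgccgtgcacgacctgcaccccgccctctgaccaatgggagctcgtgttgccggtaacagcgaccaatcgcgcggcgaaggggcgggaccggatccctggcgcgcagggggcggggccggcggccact
Hlf: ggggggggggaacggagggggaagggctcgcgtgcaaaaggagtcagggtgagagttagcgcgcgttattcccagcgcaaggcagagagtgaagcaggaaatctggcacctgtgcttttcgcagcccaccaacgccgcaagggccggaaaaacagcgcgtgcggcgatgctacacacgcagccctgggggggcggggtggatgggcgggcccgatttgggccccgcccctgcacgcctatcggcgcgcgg
Nr1d1: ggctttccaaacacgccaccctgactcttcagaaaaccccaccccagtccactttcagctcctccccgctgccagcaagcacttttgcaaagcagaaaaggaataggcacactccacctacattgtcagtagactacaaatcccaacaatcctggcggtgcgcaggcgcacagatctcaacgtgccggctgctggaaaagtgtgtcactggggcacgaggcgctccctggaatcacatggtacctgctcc
The 4 windows with an E-box, those of Tef, Per1, Cry1 and Ciart, lie inside longer transcripts of the same genes. Exons of the gene itself cover all 250 bases of the window of Cry1 and 169 bases of that of Ciart. Of the genes on the opposite strand, Thra covers the last 3173 bases of Nr1d1, Mmd the last 16035 bases of Hlf and Sphk2 the last 737 bases of Dbp. The counting mode named in the methods separates strands by default, and whether reads of such a neighbour entered these counts was not tested.

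Among the PAR bZIP genes, Hlf changed most between the layers. In IFE basal-like cells Hlf stood at 158 and 186 CPM in the control mice and at 147 and 198 CPM in the CerS4epi-/- mice, and in IFE differentiated-like cells at 109, 118, 145 and 162 CPM in the same order. In IFE keratinized-like cells, the outermost living layer, it was at 5.49 to 12.2 CPM, and in uHF-like cells at 20.6 to 34.1 CPM. Every mouse therefore had far less Hlf in these classes than in its basal cells, and neither class overlapped with the basal-like cells. The log2 fold change against basal-like cells of the same mice was -3.58 ± 0.19 (SE, n = 4 mice) in keratinized-like cells (edgeR quasi-likelihood test, adjusted p = 1.6e-13) and -2.64 ± 0.18 in uHF-like cells (edgeR adjusted p = 4.6e-11). The difference in differentiated-like cells, -0.18 ± 0.15, did not pass (edgeR adjusted p = 0.309). T cell-like cells had 15.7 to 115 CPM of Hlf from 3 to 21 counts per mouse, a log2 fold change of -1.69 ± 0.28 (edgeR adjusted p = 3.1e-05). Barcodes with 10 to 99 counts, which hold mostly free RNA, carried 64.4 to 98.7 CPM of Hlf, which overlaps with the T cell-like values of 15.7, 115, 71.7 and 64.5 CPM, and the part of free RNA in them was not tested.

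Tef and Dbp were also lower in the other keratinocyte classes tested than in basal-like cells. Tef was at 25.2 to 35.9 CPM in basal-like, 14.6 to 25.2 CPM in differentiated-like, 13.5 to 23.1 CPM in uHF-like and 8.45 to 14.8 CPM in keratinized-like cells, so that basal-like and differentiated-like cells stood just apart and the later classes overlapped with their neighbours in this order. Its log2 fold changes against basal-like cells were -0.39 ± 0.14, -0.61 ± 0.17 and -0.42 ± 0.16 in differentiated-like, uHF-like and keratinized-like cells (edgeR adjusted p = 0.0219, 0.0045 and 0.0217). These calls were the less stable ones. Without control replicate 1 the difference in differentiated-like cells no longer passed (-0.31, edgeR adjusted p = 0.115), nor did the one in uHF-like cells without CerS4epi-/- replicate 2 (-0.35, edgeR adjusted p = 0.104) or the one in keratinized-like cells without control replicate 2 (-0.31, edgeR adjusted p = 0.109). Dbp was sparse, with 607 counts over all cells of the 4 mice, but closely matched between mice in basal-like cells, at 7.0, 6.4, 6.7 and 6.6 CPM. It was at 2.5 to 4.0 CPM in differentiated-like, 1.54 to 3.22 CPM in uHF-like and 1.04 to 2.22 CPM in keratinized-like cells, none of which overlapped with the basal-like cells. The log2 fold changes were -0.90 ± 0.19, -1.48 ± 0.27 and -1.08 ± 0.24 (edgeR adjusted p = 0.00035, 6.6e-05 and 0.00036). In T cell-like cells Dbp had 3, 1, 1 and 0 counts, which gives no level. An unnamed cluster led by Aldh3a1 was not part of these contrasts. Tef stood there at 55.1 and 43.1 CPM in the control and 36.0 and 34.5 CPM in the CerS4epi-/- mice, within or above its basal-like range. Dbp stood there at 6.59 and 5.92 against 2.64 and 3.76 CPM, from 7 to 11 counts per mouse.

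**Figure D1:**
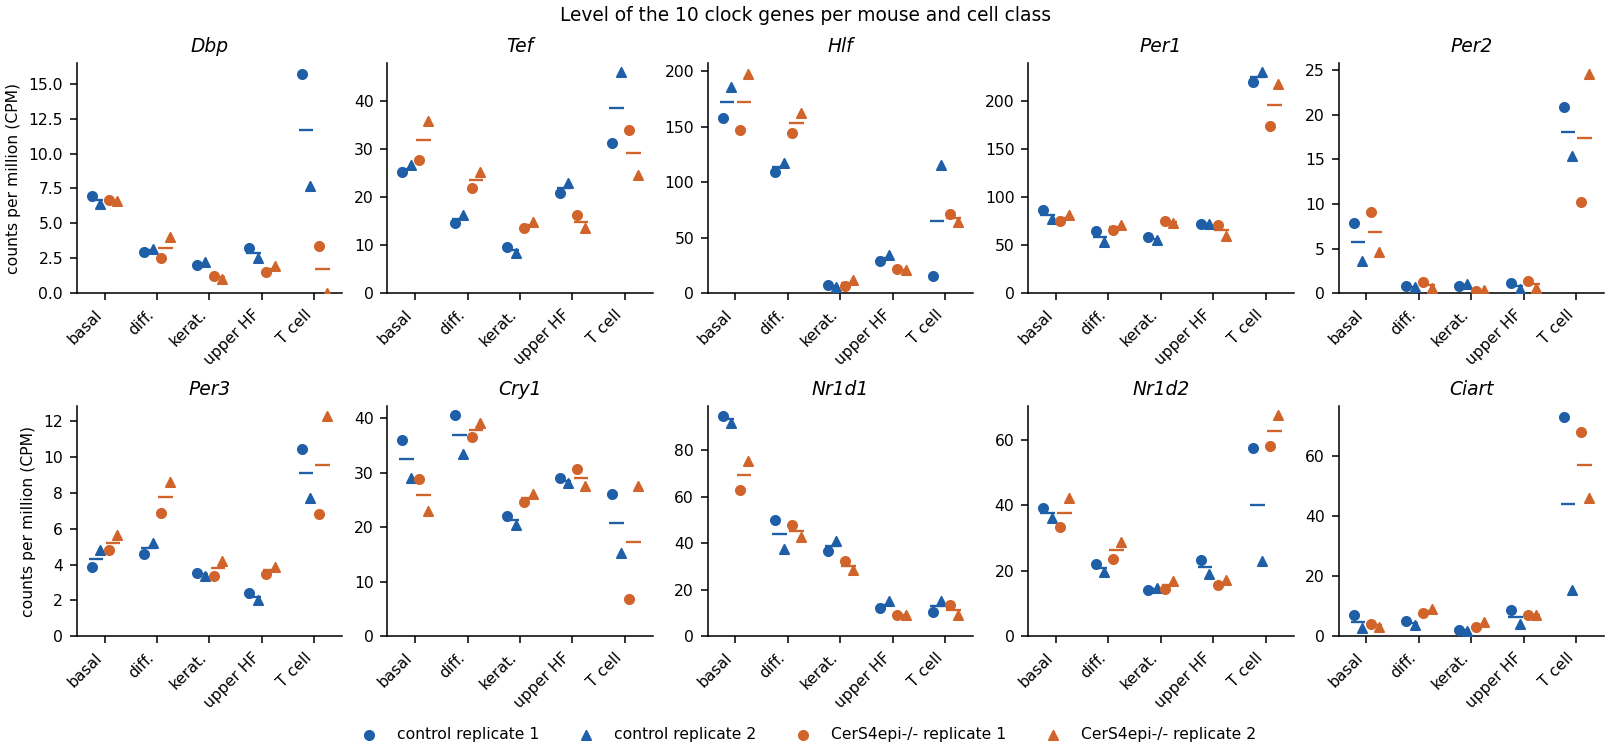
Level in CPM (counts per 1000000, linear axis from 0) of each of the 10 genes in IFE basal-like, differentiated-like and keratinized-like, upper hair follicle-like (upper HF) and T cell-like cells. Points are mice, blue for control and orange for CerS4epi-/-, circles for replicate 1 and triangles for replicate 2, and short lines are means of 2 mice; Hlf lies below 35 CPM in every mouse in keratinized-like and uHF-like cells, and Per1 and Ciart are highest in T cell-like cells.

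Among the PER and CRY repressors, Per2 fell most from basal-like cells to the other keratinocyte classes tested. It was at 3.57 to 9.09 CPM in basal-like cells. In the other keratinocyte classes tested it was at most 1.40 CPM in any mouse, from 1 to 20 counts per mouse. The log2 fold changes against basal-like cells were -2.62 ± 0.27 in differentiated-like, -2.49 ± 0.36 in uHF-like and -2.30 ± 0.35 in keratinized-like cells (edgeR adjusted p = 2.9e-08, 4.7e-06 and 3.1e-06). T cell-like cells had 10.2 to 24.6 CPM of Per2, above every basal-like value, but from 2 to 8 counts per mouse, and low-count barcodes carried 5.36 to 10.6 CPM. In the unnamed cluster led by Aldh3a1, Per2 was at 2.99 and 0 CPM in the control mice, from 5 and 0 counts. In the CerS4epi-/- mice it was there at 9.08 and 5.12 CPM, from 31 and 15 counts, which lies inside the basal-like range.

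Per1, which also responds quickly to cyclic AMP and glucocorticoids, was highest in T cell-like cells. It was there at 220 and 230 CPM in the control and 174 and 218 CPM in the CerS4epi-/- mice, from 30 to 71 counts, against 74.8 to 86.5 CPM in basal-like cells, and the 2 classes did not overlap. The log2 fold change was 1.11 ± 0.15 (edgeR adjusted p = 2.4e-06). Low-count barcodes carried 115 to 142 CPM of Per1, below each T cell-like value. Among the keratinocyte classes tested, basal-like cells were followed by uHF-like cells at 59.8 to 72.5 CPM, without overlap in CPM. The differences of Per1 in uHF-like and differentiated-like cells did not pass (-0.08 ± 0.11 and -0.13 ± 0.10, edgeR adjusted p = 0.569 and 0.263). Unnamed clusters were not part of these contrasts. In the one led by 2310046K23Rik, Per1 lay above every basal-like value in each mouse. In the one led by Aldh3a1 it overlapped with the basal-like range.

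Per1, Cry1 and Per3 changed direction with the scaling in IFE keratinized-like cells. With TMM factors, which assume that most genes do not differ, their log2 fold changes against basal-like cells were 0.61 ± 0.11, 0.58 ± 0.12 and 0.51 ± 0.16 (edgeR adjusted p = 1.7e-05, 0.00019 and 0.0054). As plain CPM, without TMM factors, they were -0.30, -0.33 and -0.39 (edgeR adjusted p = 0.0102, 0.0121 and 0.0315). The median over all 13639 genes tested moved from -0.12 to -1.01 between these scalings, and the share of higher among called genes from 47.0% to 26.2%, since the TMM factors were 0.631 to 0.698 in keratinized-like and 1.10 to 1.14 in basal-like cells. Relative to the median gene these 3 were higher under both scalings, while the falls of Hlf, Per2, Dbp and Tef kept their direction under both. Per3 also failed to pass in this class without control replicate 1 (0.42, edgeR adjusted p = 0.0537) or with no filter on low counts (0.36, edgeR adjusted p = 0.144). In differentiated-like cells the share of higher among called genes moved from 47.3% to 32.8%, and Cry1 and Per3 were higher under both scalings. Cry1 was at 33.4 to 40.5 CPM there against 23.1 to 36.0 CPM in basal-like cells (0.55 ± 0.11, edgeR adjusted p = 0.00022), and Per3 at 4.59 to 8.60 against 3.88 to 5.62 CPM (0.57 ± 0.13, edgeR adjusted p = 0.0008).

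**Figure D2:**
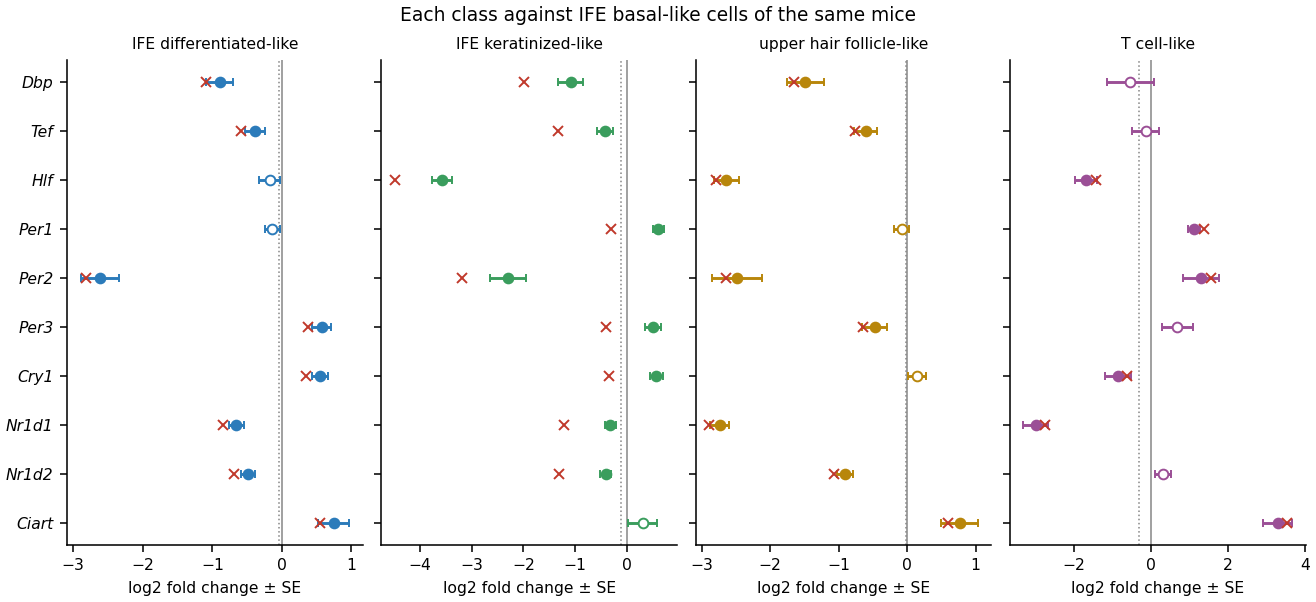
Log2 fold change of each gene in 4 classes against IFE basal-like cells of the same mice, with its SE (edgeR with TMM factors, 4 mice); filled points passed at an adjusted p of 0.05, red crosses are the passing genes on plain CPM, and dotted lines are medians over all genes tested. Hlf, Nr1d1, Per2 and Dbp lie left of 0 in uHF-like cells, and in keratinized-like cells the crosses of Per1, Per3 and Cry1 lie on the other side of 0 from their points.

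The REV-ERB genes, whose products repress Arntl, differed in how steeply they fell. Nr1d1 was at 94.7 and 92.0 CPM in basal-like cells of the control mice and at 63.0 and 75.5 CPM in those of the CerS4epi-/- mice. It stood at 37.7 to 50.3 CPM in differentiated-like, 28.4 to 41.0 CPM in keratinized-like and 9.10 to 15.1 CPM in uHF-like cells, each below every basal-like value. In uHF-like cells the log2 fold change was -2.73 ± 0.14 (edgeR adjusted p = 3.2e-13), against -0.65 ± 0.10 in differentiated-like and -0.31 ± 0.11 in keratinized-like cells (edgeR adjusted p = 1.0e-05 and 0.0109). The last of these no longer passed without control replicate 1 (-0.28, edgeR adjusted p = 0.0703), without CerS4epi-/- replicate 2 (-0.27, edgeR adjusted p = 0.0746) or with DESeq2's size factors (-0.21, edgeR adjusted p = 0.0792). T cell-like cells had 9.22 to 15.4 CPM of Nr1d1, from 2 to 4 counts per mouse, below the 44.2 to 67.4 CPM of low-count barcodes. The part of free RNA in these values was not tested. Nr1d2 fell by 0.41 on the log2 scale in keratinized-like cells (SE 0.11, edgeR adjusted p = 0.0020), slightly more than Nr1d1 there, and by less than Nr1d1 in uHF-like cells, from 33.3 to 42.2 CPM in basal-like to 15.8 to 23.4 CPM in uHF-like cells (-0.91 ± 0.12, edgeR adjusted p = 1.2e-06), and its T cell-like level of 23.0 to 67.6 CPM overlapped with the basal-like one.

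Ciart, which encodes a repressor of CLOCK and ARNTL, was the gene with the largest fold change in T cell-like against basal-like cells. T cell-like cells had 73.2 and 15.4 CPM in the control and 68.3 and 46.1 CPM in the CerS4epi-/- mice, from 14, 2, 20 and 15 counts. In the 4 keratinocyte classes Ciart stayed between 1.80 and 9.08 CPM, and low-count barcodes carried 6.74 to 10.1 CPM, so each T cell-like value lay above both. The log2 fold change against basal-like cells was 3.29 ± 0.38 (edgeR adjusted p = 2.2e-07). All 10 T cell markers were detected in these sums, at 19726 to 24213 CPM in all, and the 8 basal markers summed to 1191 to 3864 CPM, against 18664 to 22587 CPM in basal-like cells. Keratinocyte RNA was thus present in the T cell-like sums, and its part in their clock gene levels was not tested.

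In all, 8 of the 10 genes passed against basal-like cells in differentiated-like, 9 in keratinized-like, 8 in uHF-like and 6 in T cell-like cells. The background was high, since 62.3%, 82.6%, 59.8% and 45.7% of all genes tested passed in these contrasts, so the counts alone are no result about clock genes. The median log2 fold change of the 10 was -0.76 in uHF-like cells, with 7 lower and 1 higher where 30.6% and 29.2% of all genes were, against -0.02 over all genes, and -0.28, -0.36 and 0.08 in differentiated-like, keratinized-like and T cell-like cells, against -0.04, -0.12 and -0.31. Without CerS4epi-/- replicate 2, 5 genes passed in uHF-like cells.

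Between the genotypes, 3 of the 10 genes passed in IFE differentiated-like cells. Hlf was at 109 and 118 CPM in the control and 145 and 162 CPM in the CerS4epi-/- mice, Tef at 15 and 16 against 22 and 25 CPM, and Ciart at 5.27 and 3.98 against 7.84 and 9.08 CPM. In each case both CerS4epi-/- mice lay above both control mice, and the genotypes did not overlap in 6 of the 10 genes, where 55.7% of all genes did not. The log2 fold changes were 0.42 ± 0.08 for Hlf, 0.59 ± 0.11 for Tef and 0.85 ± 0.19 for Ciart (edgeR adjusted p = 0.0121, 0.0139 and 0.0258), so that 3 of the 10 genes rose and none fell, where 8.06% of all genes passed and 4.48% rose. Their median log2 fold change was 0.35, against 0.00 over all genes. Hlf and Tef passed in each of the 15 alternatives run, but Ciart did not without control replicate 2 (0.66, edgeR adjusted p = 0.0696), without CerS4epi-/- replicate 2 (0.78, edgeR adjusted p = 0.0657) or with DESeq2 (0.85, adjusted p = 0.0800). Markers of other classes also differed in these sums. The IFE basal markers summed to 1235 and 1348 CPM in the control and 1699 and 1671 CPM in the CerS4epi-/- mice, the keratinized markers to 1332 and 1408 against 1827 and 1720 CPM, the uHF markers to 441 and 444 against 698 and 634 CPM, and the fibroblast markers to 99.4 CPM in CerS4epi-/- replicate 2 against at most 11.7 CPM in the other mice. Their part in the clock gene differences was not tested. Per3 (0.62 ± 0.18, edgeR adjusted p = 0.0672) and Nr1d2 (0.31 ± 0.11, edgeR adjusted p = 0.136) did not pass, and Per2 with 6 to 20 counts per mouse, Dbp, Cry1, Per1 and Nr1d1 had adjusted p values of 0.241 to 0.946 in this edgeR test.

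In IFE keratinized-like cells Per1 and Tef rose, where 14.7% of all genes passed and 8.82% rose, and the genotypes did not overlap in 6 of the 9 genes tested, where 59.7% of all genes did not. Per1 was at 58.3 and 55.1 CPM in the control and at 75.0 and 72.9 CPM in the CerS4epi-/- mice (0.50 ± 0.09, edgeR adjusted p = 0.0057), and it passed in each alternative run. Tef was at 9.69 and 8.45 against 13.5 and 14.8 CPM (0.75 ± 0.17, edgeR adjusted p = 0.0171), but did not pass without control replicate 2 (0.66, edgeR adjusted p = 0.0866) or with DESeq2 (0.77, adjusted p = 0.0807). Of the other 7 genes tested, Ciart (1.07 ± 0.35, edgeR adjusted p = 0.0701) and Cry1 (0.36 ± 0.12, edgeR adjusted p = 0.0650) came closest, and Per2 was too low to be tested. Without CerS4epi-/- replicate 1, 4 of the genes passed, and without control replicate 2 only 1. On plain CPM the median over all genes moved from -0.02 to -0.13 and the share of higher among called genes from 60.0% to 34.8%, so the genotype fold changes in this class depend on the scaling by about that much.

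**Figure D3:**
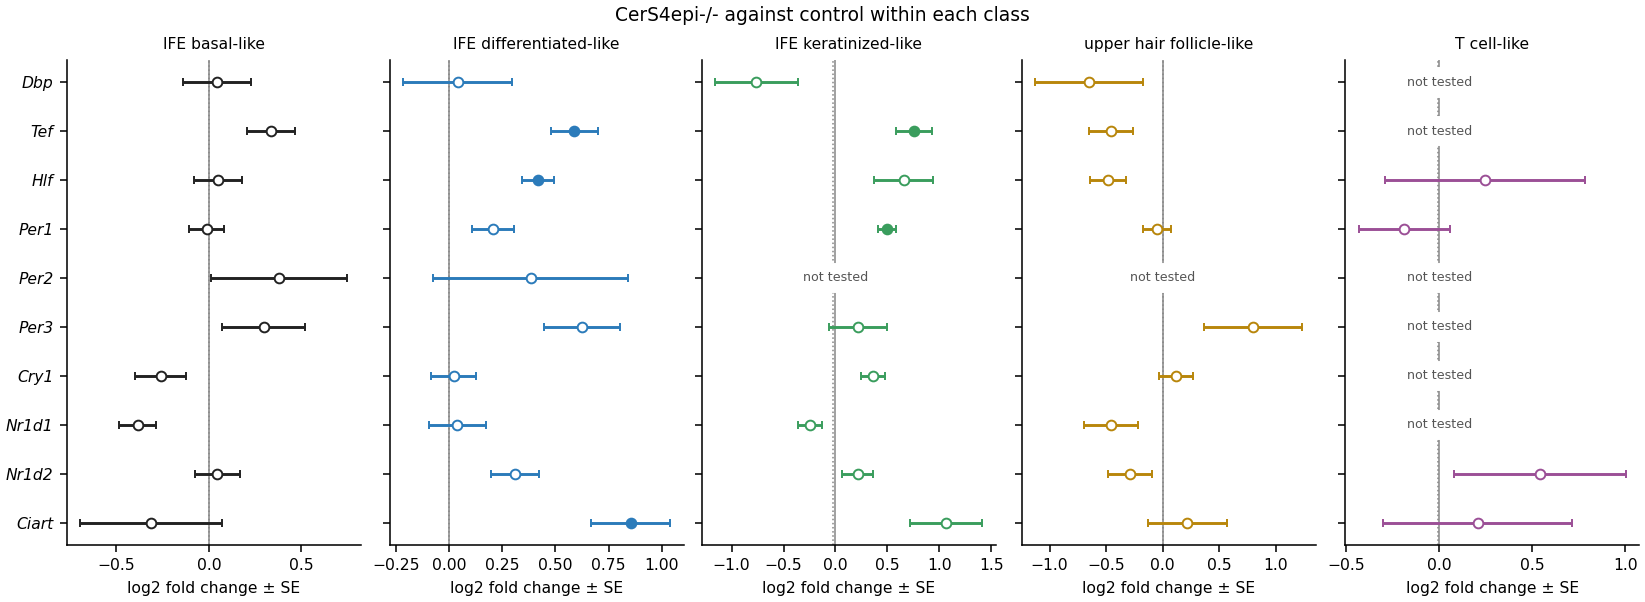
Log2 fold change of each gene in CerS4epi-/- against control mice within each of 5 classes, with its SE (edgeR, 2 mice per genotype); filled points passed at an adjusted p of 0.05, open points did not, and dotted lines are medians over all genes tested. Tef, Hlf and Ciart in differentiated-like cells and Per1 and Tef in keratinized-like cells are filled to the right of 0, and no point is filled in basal-like, uHF-like or T cell-like cells.

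In IFE basal-like cells none of the 10 genes passed (edgeR), where 4.4% of all genes did. An unadjusted p under 0.05 was found for 2 of the 10, and for 2467 of all 12826 genes tested. The 2 were Nr1d1 (-0.39 ± 0.10, edgeR adjusted p = 0.0629) and Tef (0.33 ± 0.13, edgeR adjusted p = 0.191). Both CerS4epi-/- mice were below both control mice in Nr1d1, and the gene passed in 6 of the 16 alternatives run. These were no TMM, no filter on low counts, random pseudoreplicates, the replicate block, the Aldh3a1-led cluster added, and CerS4epi-/- replicate 2 left out (-0.52). Random pseudoreplicates treat cells as replicates, and the numbers used in the block do not pair the mice. The genotypes did not overlap in 4 of the 10 genes, where 51.6% of all genes did not. Hlf and Per1 were level between the genotypes in this class, at 172 ± 19.8 against 172 ± 35.7 CPM and 81.7 ± 6.74 against 78.3 ± 5.01 CPM (SD, n = 2 mice each), with log2 fold changes of 0.05 ± 0.13 and -0.01 ± 0.09 (edgeR adjusted p = 0.883 and 0.963). The share of higher among called genes was 61.0%, and 48.9% on plain CPM.

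In uHF-like cells none of 9 genes passed (edgeR), where 14.2% of all genes did. Hlf was at 29.0 and 34.1 CPM in the control and 21.6 and 20.6 CPM in the CerS4epi-/- mice (-0.48 ± 0.16, edgeR adjusted p = 0.0698), and Tef at 20.9 and 23.1 against 16.4 and 13.5 CPM (-0.46 ± 0.19, edgeR adjusted p = 0.150), so the CerS4epi-/- mice were the lower ones here without overlap. This held one way or the other for 7 of the 9 genes, where 60.6% of all genes did not overlap. Hlf passed on plain CPM (-0.57, edgeR adjusted p = 0.0340) and in cells with at least 2000 counts (-0.68, edgeR adjusted p = 0.0219). Hlf and Tef were the 2 genes of the 9 with an unadjusted p under 0.05, where 3222 of all 11374 genes tested had one. The median of the 9 was -0.29, against 0.00 over all genes. The class has 2 clusters, and the smaller one held 89 and 58 cells of the control and 381 and 386 cells of the CerS4epi-/- mice. Its 10 leading genes were Krt6a, Cst6, Cald1, Krt17, Lhx2, Sprr1a, Cpe, Apoe, Sox9 and Gpx2, of which 2 (Cst6 and Krt17) are on the uHF marker list, 2 (Lhx2 and Sox9) on the outer bulge list and 1 (Krt6a) on the inner bulge list. Without this cluster the differences were -0.16 ± 0.16 for Hlf and -0.20 ± 0.24 for Tef (edgeR adjusted p = 0.654 and 0.703). Those of Nr1d1 and Per3 grew instead, from -0.45 and 0.80 over the whole class to -0.62 ± 0.26 and 1.22 ± 0.51. Neither passed (edgeR adjusted p = 0.208 for both). Over the whole class the IFE basal markers summed to 2638 and 2979 CPM in the control and 5321 and 6406 CPM in the CerS4epi-/- mice, the IFE differentiated markers to 21999 and 27044 against 15918 and 15423 CPM, and the uHF markers to 37207 and 31479 against 45479 and 53333 CPM. The median share of mitochondrial counts per cell was 7.72% and 7.12% against 9.97% and 9.58%. The part of these shifts in the clock gene differences was not tested. The share of higher among called genes was 59.9%, and 44.4% on plain CPM.

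T cell-like cells, in which keratin-14-driven Cre is not active, had counts enough to test Hlf, Per1, Nr1d2 and Ciart. None passed and none had an unadjusted p under 0.05 (edgeR). Of all 4486 genes tested, 1, or 0.0223%, did pass, and 286 had an unadjusted p under 0.05. The genotypes did not overlap in 1 of the 4, Per1, where 36.4% of all genes did not. Per1 differed by -0.19 ± 0.24 (edgeR adjusted p = 0.963) and Ciart by 0.21 ± 0.51 (edgeR adjusted p = 0.97). In simulated sums of this depth, with the same spread set for all genes, the test found 21.1% of genes changed 2-fold and 91.5% changed 4-fold. Of genes changed 1.41-fold it found 0% here. In basal-like, differentiated-like, keratinized-like and uHF-like cells it found 6.25%, 4.48%, 7.58% and 3.03% of those. Changes of that size were thus mostly missed in every class of the simulation, whose spread was not fitted to these data. Hlf in differentiated-like and Per1 in keratinized-like cells did pass at log2 fold changes of 0.42 and 0.50. A gene that did not pass may still differ.

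The unnamed cluster led by Aldh3a1 (3882 cells, also high in Sostdc1, Apoe, Igfbp4 and Fst) was looked at after its values had been seen, and it held the largest genotype difference that passed for any of the 10 genes. Nr1d1 was there at 34.1 and 39.7 CPM in the control mice and at 11.7 and 9.90 CPM in the CerS4epi-/- mice (log2 fold change -1.68 ± 0.23, edgeR adjusted p = 0.0005). Hlf was at 55.1 and 88.7 CPM against 42.2 and 40.3 CPM (-0.70 ± 0.19, edgeR adjusted p = 0.0454), so that 2 of 9 genes tested fell where 6.56% of all genes passed and 3.29% fell in this cluster. Per2 had a larger fold change, 2.08 ± 0.69, but did not pass (edgeR adjusted p = 0.0908). Of the other clock genes, Npas2 and Rora fell (-1.31 and -1.15, edgeR adjusted p = 0.0283 and 0.0002). The cluster held 753 and 573 cells of the control and 1348 and 1208 cells of the CerS4epi-/- mice, and of the 12 immediate early and dissociation genes, 5 fell and none rose in it, whereas 5 of the 8 glucocorticoid response genes rose and none fell. The uHF markers summed there to 1874 and 1471 CPM in the control and 3069 and 3674 CPM in the CerS4epi-/- mice, and their part in these differences was not tested.

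The interaction test asks whether the genotype difference is the same in every class. It passed for Tef, Per1 and Hlf (edgeR adjusted p = 0.0068, 0.0272 and 0.0418 over the 4 terms against basal-like cells), 3 of the 10 genes, where 11.4% of all genes passed. For Tef the single term that passed was uHF-like against basal-like cells, at -0.78 ± 0.22 (edgeR adjusted p = 0.0284), where 6.94% of all genes passed, the CerS4epi-/- mice being the higher ones in the basal-like and the lower ones in the uHF-like class. For Per1 it was keratinized-like against basal-like cells, at 0.54 ± 0.14 (edgeR adjusted p = 0.0173), as for Cry1, at 0.65 ± 0.18 (edgeR adjusted p = 0.0288), whose joint test did not pass (edgeR adjusted p = 0.115), where 5.1% of all genes passed this term. No single term of Hlf passed. The joint calls rest on few mice, and without control replicate 2 none of the 3 passed (edgeR adjusted p = 0.121, 0.180 and 0.201 for Hlf, Tef and Per1). Without control replicate 1 neither Tef (edgeR adjusted p = 0.0932) nor Per1 (edgeR adjusted p = 0.239) did, and Per1 failed without CerS4epi-/- replicate 1 as well (edgeR adjusted p = 0.0543), as did Per1 and Hlf without Harmony (edgeR adjusted p = 0.0968 and 0.170) and Hlf at Leiden resolution 1.2 (edgeR adjusted p = 0.0654). The single terms failed in 6 of 13 alternatives for Tef and in 4 of 13 each for Per1 and Cry1, on plain CPM among them for the last 2.

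Whether a difference between mice ran through all layers was counted directly. Of the 9 genes tested in all 4 keratinocyte classes, 1, Per3, had its genotype means in the same order in every class, where 35.8% of all genes did. The 2 control mice differed in the same direction in all 4 classes in 3 of the 9 genes, namely Per1, Cry1 and Ciart, each higher in replicate 1, where 22.6% of all genes did. The 2 CerS4epi-/- mice did so in Per3 and Nr1d2, each higher in replicate 2, where 21.1% of all genes did. These shares are counted over genes within the same libraries and are a description.

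Mice of 1 genotype also differed from each other, most clearly in Per2 and Ciart. Per2 in basal-like cells was at 7.85 and 3.57 CPM in the control mice and at 9.09 and 4.62 CPM in the CerS4epi-/- mice, from 83, 41, 108 and 37 counts. In both genotypes the mouse numbered 1 was the higher one, by 1.13 and 0.97 on the log2 scale. The numbers are names and do not pair the mice. Ciart in control mice was higher in replicate 1 by 1.33 in basal-like, 0.40 in differentiated-like, 0.28 in keratinized-like, 1.09 in uHF-like and 1.98 in T cell-like cells, all on the log2 scale. The T cell-like difference rests on 14 and 2 counts. Hlf was higher in replicate 2 of the CerS4epi-/- mice by 0.43 in basal-like and 0.84 in keratinized-like cells on the log2 scale, and level in uHF-like cells (20.6 against 21.6 CPM).

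**Figure D4:**
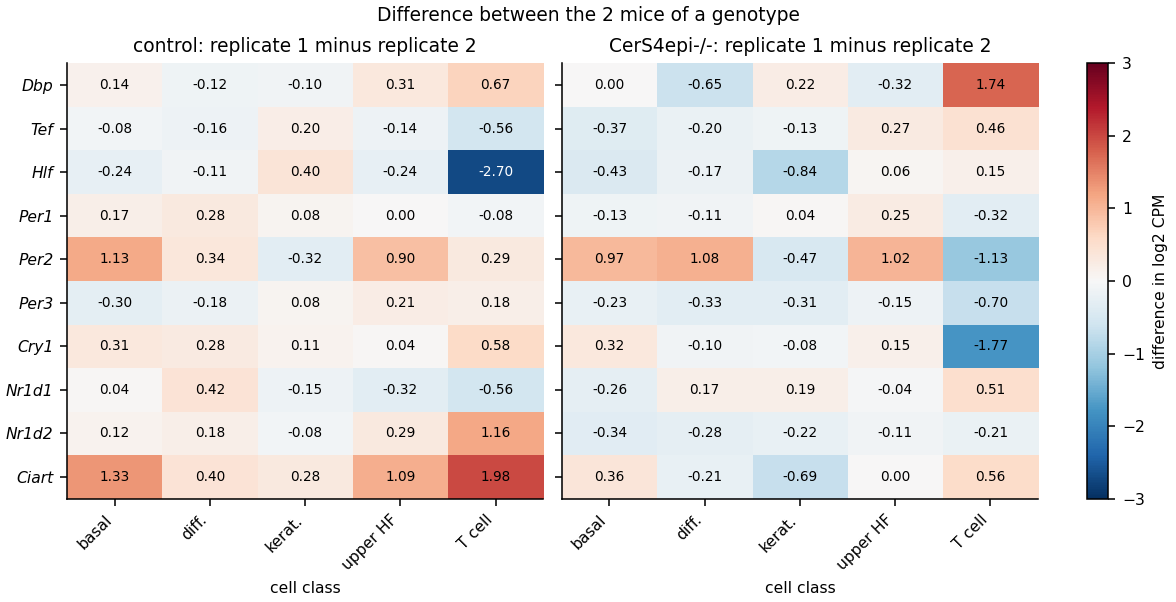
Difference in log2 CPM between replicate 1 and replicate 2 of the control mice (left) and of the CerS4epi-/- mice (right), for each gene and class; red is higher in replicate 1 and blue higher in replicate 2. Ciart is red in every class of the control mice, Per2 is red in basal-like cells of both genotypes, and most other genes change sign between classes. The T cell-like values of Dbp, Cry1, Nr1d1, Per2 and Per3 rest on fewer than 10 counts per mouse. Those of Ciart, Hlf, Nr1d2 and Tef rest in the control mice on 14 and 2, 3 and 15, 11 and 3, and 6 and 6 counts.

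Of 17 other clock genes, 16, 16, 14, 15 and 8 could be tested between genotypes in basal-like, differentiated-like, keratinized-like, uHF-like and T cell-like cells, and 1, 2, 3, 4 and 0 passed, where 4.4%, 8.06%, 14.7%, 14.2% and 0.0223% of all genes did. In basal-like cells this was Arntl2, a paralogue of Arntl (0.73, edgeR adjusted p = 0.0156). Bhlhe40, which encodes a repressor of E-box genes, rose in differentiated-like (0.89, edgeR adjusted p = 0.0113) and uHF-like cells (0.93, edgeR adjusted p = 0.0432). Csnk1e, a kinase that acts on PER proteins, rose in differentiated-like, keratinized-like and uHF-like cells, by 0.43, 0.80 and 0.60 (edgeR adjusted p = 0.0379, 0.00099 and 0.0066). Rora, an activator of Arntl, went opposite ways, with 0.44 in keratinized-like (edgeR adjusted p = 0.0035) and -1.08 in uHF-like cells (edgeR adjusted p = 0.0004), and Usp2 rose in uHF-like cells (1.23, edgeR adjusted p = 0.00077). The median of this list was -0.07, 0.09, 0.17, 0.02 and 0.11 in the order of classes above. Of 8 clock-controlled genes, 2 rose and 1 fell in basal-like cells, 1 rose in differentiated-like, 3 rose and 1 fell in keratinized-like and 1 rose in uHF-like cells, against the same shares of all genes. They were led by Aqp3, a water and glycerol channel, at 2.64 in basal-like cells (edgeR adjusted p = 3.9e-06), 2.49 in differentiated-like cells (edgeR adjusted p = 0.00028) and 1.83 in keratinized-like cells (edgeR adjusted p = 0.0172).

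Some of the listed genes that answer to glucocorticoids or to tissue dissociation rose in each of the 3 IFE classes. Of 8 glucocorticoid response genes, 2, 5, 3 and 1 rose in basal-like, differentiated-like, keratinized-like and uHF-like cells, and 1 fell, in the last class, where 2.68%, 4.48%, 8.82% and 8.49% of all genes rose and 5.7% fell in the last class. Fkbp5, an inhibitor of glucocorticoid receptor signalling, differed by 1.14 in differentiated-like and 0.72 in keratinized-like cells (edgeR adjusted p = 0.0224 and 0.0130), and Sgk1, a kinase induced by glucocorticoids, by 0.80 and 0.62 (edgeR adjusted p = 0.0015 and 0.0455). Of 12 immediate early and dissociation genes, 7, 8 and 9 rose in basal-like, differentiated-like and keratinized-like cells and none fell, with medians of 0.36, 0.61 and 0.70. In uHF-like cells none of them rose and 1 fell (median -0.08), and in T cell-like cells none passed (edgeR). There 2 of the 12 had an unadjusted p under 0.05, where 286 of all 4486 genes tested had one. In differentiated-like cells they were led by Egr1 and Dusp1 (0.89 and 0.82, edgeR adjusted p = 0.0079 and 0.00071). The part of glucocorticoids or of the dissociation of the tissue in the clock gene differences was not tested.

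The 8 genes whose pattern was most like that of Dbp, by the correlation of log2 CPM after removing each class's mean, were Atn1, Ap1ar, Actr2, Txnl1, Sypl, Ube2a, Sub1 and Sgms1, with Pearson's r of 0.92 to 0.83 over 20 sums of 4 mice in 5 classes, among 1428 genes. No gene of the clock lists was among them, but the 10 genes themselves and genes of low mean level in any of these classes were left out of the ranking. It therefore cannot show whether Dbp resembles other clock genes. The sums of 1 mouse share a library, and the T cell-like values of Dbp are 0 to 3 counts. Without T cell-like cells, over 16 sums and among 1649 genes, none of these 8 was among the first 8, which Sptan1 led (r = 0.94), so the likeness rests on the sparse T cell-like sums.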

How the data were processed

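Single-cell RNA was measured with BD Rhapsody in 1 library per mouse, from 2 control and 2 CerS4epi-/- mice. According to the methods, and with versions from the submitters' processing notes, the authors trimmed reads with fastp 0.23.2 and mapped and counted them with STARsolo (STAR 2.7.10a) against the GRCm39 genome and Gencode vM29. Deposited were expected counts of UMIs per gene and barcode, with reads of several genes shared between them, not normalized and not filtered for cells. Library totals were 39231945 to 53106317 counts.

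A barcode was kept as a cell when it had 1200 counts or more, of which no more than 20% were mitochondrial. Scrublet marked 3 cells, so it did not work and doublets are present. Cells were normalized with scran 1.30.0, joined with a rewritten Harmony (100 components), clustered by Leiden (30 neighbours, resolution 0.8, scanpy 1.11.5, igraph 0.11.9) on 2995 variable genes, and named from marker lists. A name needed a lead of 0.25, at least 3 detected markers and, among the 10 leading genes, no more markers of another list than of its own, and 1 close call was settled after the clusters had been seen. It named 1862 of the 2775 IFE keratinized-like cells, for which the IFE differentiated list scored highest (lead 0.19). The 5 clock and related list genes among the variable ones were held out of the clustering. The cluster led by Aldh3a1 (3882 cells) scored highest for basal markers but had the outer bulge marker Fst and no basal marker among its leading genes, so it and 2 smaller ones stayed unnamed.

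Counts were summed per mouse and class, rounded, filtered with filterByExpr, scaled by TMM and tested with edgeR 4.0.16 (R 4.3.3) by its quasi-likelihood test, checked on simulated counts. Layers were compared with the mouse as a block, and genotypes with the mouse as the replicate. Adjusted p is by Benjamini-Hochberg over all genes tested, with a threshold of 0.05. An exact permutation test of 2 mice against 2 cannot give a p below 0.333. Alternatives included DESeq2 1.42.0, DESeq2's size factors in edgeR, no TMM, no filter on low counts, random pseudoreplicates, a replicate block, each mouse left out, other cell filters (2000 counts, 10% mitochondrial counts), the 5% highest doublet scores left out, no Harmony, resolution 1.2 and other class members. No TMM, the likeness without T cells and the changed classes were chosen after seeing the data. Values cover counting error only within a sum, and UMI counts of free RNA are included.

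The 10 genes and the gene lists were chosen with earlier results of these data known. All 10 are named, and of other lists at most the 4 genes of largest change in a class. The list of possible barcodes was not used.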

Additional observations from a re-analysis of the deposited data

Results flagged for a closer look

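In 3 genes the genotype difference differed between classes by the interaction test over all classes. The edgeR adjusted p was 0.00684 for Tef, 0.0272 for Per1 and 0.0418 for Hlf. Tef was higher in both CerS4epi-/- mice in each of the 3 IFE classes and lower in both of them in uHF-like cells. The difference in uHF-like minus that in basal-like cells was -0.78 on the log2 scale. In the larger uHF-like cluster alone, the genotype difference of Tef was -0.20 ± 0.24 (edgeR adjusted p = 0.703). Per1 differed by 0.54 more in keratinized-like than in basal-like cells, and Cry1 by 0.65 more, with Cry1 lower in both CerS4epi-/- mice in basal-like and higher in both of them in keratinized-like cells. The single terms failed in 6 of 13 alternatives for Tef and in 4 of 13 each for Per1 and Cry1. With 2 mice per genotype, no sample could be set apart from the others of its group.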

How the results depend on the processing

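Limits first. Each genotype has 2 mice, the hour of harvest is not given, and genotype and capture cannot be told apart. Dbp, Per2, Per3 and Ciart had 447 to 941 counts over all cells, so differences in single classes were detectable only where large, and T cell-like values rest on few counts.

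Between genotypes, the count of genes passing moved by over 1.5 times in these cases. In IFE basal-like cells it went from 564 to 337 at 10% mitochondrial counts, 356 with DESeq2, 1277 with no filter on low counts, 1222 with pseudoreplicates and 983 with the Aldh3a1-led cluster, and members from 0 to 1 with no filter on low counts, no TMM, pseudoreplicates or that cluster. In differentiated-like cells it went from 1046 to 663 with DESeq2, 1922 with no filter and 1702 with pseudoreplicates. In keratinized-like cells it went from 1603 to 855 with DESeq2, with members from 2 to 1, and members to 4 with no filter. In uHF-like cells it went from 1614 to 850 with DESeq2 and 609 in the largest cluster, and members from 0 to 1 at 2000 counts or with no TMM. In T cell-like cells it went from 1 to 0 at 2000 counts, 17 with no filter, 6 in cells low in keratin counts and 29 without the highest doublet scores, with 0 members in all of these. At 2000 counts the T cell-like layer contrast went from 6230 to 3952 genes, and without Harmony the joint interaction from 3 members to 1. The causes were not tested.

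With each mouse left out in turn, basal-like cells gave 313 to 857 genes and 0 to 1 members, keratinized-like cells 955 to 1707 genes and 1 to 4 members, T cell-like cells 0 to 1 genes, the uHF-like layer contrast 5 to 7 members, and the joint interaction 595 to 1544 genes and 0 to 4 members. Fewer mice enter these fits. Where 1 mouse of a genotype is left, it is taken to vary like the others.

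With the replicate block, 1434 genes passed in basal-like, 2332 in differentiated-like and 41 in T cell-like cells, and members went from 0 to 2 (Nr1d1 and Tef) and from 3 to 5 (Per3 and Nr1d2 added) in the first 2 classes. The numbers do not pair the mice: the correlation of their deviations was -0.05 to 0.13 over the classes, and only 2 pairs exist.

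Per2 in basal-like cells changed sign without CerS4epi-/- replicate 1 (-0.24) and without control replicate 2 (-0.09), and passed without control replicate 1 (1.03). In keratinized-like against basal-like cells, Per1, Per3 and Cry1 turned to -0.30, -0.39 and -0.33 with no TMM, which follows from the scaling. No other call on a member changed direction in the alternatives run. Among layer calls, that of Cry1 in T cell-like cells was lost in 9 of 12 alternatives and that of Per3 in uHF-like cells in 8 of 13.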

Other observations

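In Langerhans cell-like cells (41 to 74 per mouse) Per1 was at 256, 184, 174 and 179 CPM, from 25 to 55 counts, near the T cell-like level and above every keratinocyte value. In sebaceous gland-like cells Ciart had 20, 0, 10 and 12 counts, or 90.9, 0, 21.5 and 27.5 CPM, from 11, 3, 26 and 32 cells in the order control replicate 1 and 2 and CerS4epi-/- replicate 1 and 2. Neither class was tested, and the sebaceous gland-like one had as few as 3 cells in a mouse.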
